A study of Mus musculus with 21 samples.

Results

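Pituitaries of homozygous and heterozygous *Zeb1* mutant mice that had completed a breeding trial were compared by small-RNA-seq, in which small RNAs are selected by size and their reads counted. The comparison takes 3 *Zeb1 200M* libraries (replicates 1, 2, and 3) and 3 *Zeb1 200H* libraries (replicates 1, 3, and 4), which are 6 of the 21 libraries in the series. They were chosen by genotype and cohort from the sample labels, and every miRNA counted in them was considered. WT libraries of the cohort serve as the reference level, and libraries of younger virgin mice of the same genotypes serve for comparison.

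The study used a previously published *Zeb1* allele with mutated sites for miR-200a and miR-200b in the 3′ UTR of the endogenous gene. The protein-coding sequence and the miRNA genes themselves are left as they are. *Zeb1 200H* mice carry the mutant allele on 1 chromosome and *Zeb1 200M* mice on both, so every mouse of the comparison carries at least 1 mutant allele. The lines came from 2 embryonic stem cell clones on a C57BL/6J background, and the labels do not say which clone or intercross a library of this cohort came from. The question of the comparison is which pituitary miRNAs differ when the remaining WT allele is also replaced. All 6 mice were females 28–36 weeks old that had been paired with WT males, each library is a different mouse, and tissue was taken in proestrus.

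ZEB1 is a zinc-finger and homeodomain transcription factor that represses genes of the epithelial program through E-box elements, among them both gene clusters that encode the miR-200 superfamily. The miR-200 guide strands, the strands of the processed duplex that are loaded into Argonaute, in turn bind sites in the *Zeb1* 3′ UTR and repress it. This double-negative loop is best known from the transition between epithelial and mesenchymal states, and in the pituitary the miR-200 superfamily is expressed in the epithelial, hormone-producing gland and is needed for female fertility.

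Replacing the second allele was accompanied by lower levels of the miR-200 guide strands of chromosome 6 and a higher level of the neuronal miR-124-3p. miR-200c-3p fell from 4450.1 CPM ± 302 (SD, n = 3) in *Zeb1 200H* to 1873 CPM ± 105 (SD, n = 3) in *Zeb1 200M*, and miR-141-3p fell from 3953 CPM ± 747 (SD, n = 3) to 2018 CPM ± 157 (SD, n = 3), where CPM is the count scaled to a library total of 1000000. miR-124-3p rose from 4278 CPM ± 619 (SD, n = 3) to 8004 CPM ± 249 (SD, n = 3). Of the 274 miRNAs tested, these 3 (1.09%) passed an adjusted p of 0.05, with 2 lower (0.73%) and 1 higher (0.365%) in *Zeb1 200M*. The guide strands of the chromosome 4 cluster, miR-200b-3p, miR-200a-3p, and miR-429-3p, did not pass.

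The depth of these libraries limits what can be seen. Total miRNA counts were 110003, 60037, and 131324 in *Zeb1 200H* replicates 1, 3, and 4, and 87665, 124190, and 122810 in *Zeb1 200M* replicates 1, 2, and 3. A single read is therefore worth 16.7 CPM in *Zeb1 200H* replicate 3, the shallowest library, and 7.61 CPM in *Zeb1 200H* replicate 4, the deepest. Of 1841 miRNA names, 668 were counted in any of the 6 libraries and 274 had enough counts to be tested. Pearson correlations of log2 CPM across miRNAs, which are not independent replicates, were between 0.963 and 0.986 over all pairs of the 6 libraries. The median half-width of the 95% confidence interval of a log2 fold change was 0.23 for the 37 miRNAs whose mean count was 500 or more and 0.50 for the 166 whose mean was below 100. The study does not describe a collapse of reads to molecules, so limits for a count of 0 cover counting error only.

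The 5 miR-200 guide strands form a pair of seed families, and their sequences show which strands share a seed. Each is written 5′ to 3′, with the seed, bases 2 to 8, in capitals, from RefSeq (GRCm38.p6), where all 5 were found by name.
miR-200b-3p: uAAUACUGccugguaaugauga
miR-200c-3p: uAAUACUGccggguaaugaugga
miR-429-3p: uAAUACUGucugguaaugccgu
miR-200a-3p: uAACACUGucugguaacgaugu
miR-141-3p: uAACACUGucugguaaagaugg

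The upper 3 strands form the miR-200b family and the lower 2 the miR-200a family. The seeds of the families differ by U4C, with positions counted from 1 at the 5′ end of the guide strand and the base of miR-200b-3p given first. Reads of this cohort were assigned by their first 18 bases, and over those bases several strands differ at 1 position. miR-200b-3p differs from miR-200c-3p by U11G and from miR-429-3p by C9U, and miR-200a-3p differs from miR-141-3p by C17A. The fold changes therefore compare strands whose counted sequences are nearly alike within a family.

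Each seed family draws on both gene clusters. In the genome build GRCm38, *Mir200b*, *Mir200a*, and *Mir429* lie within 1846 bp on the minus strand of chromosome 4, between 156053905 and 156055750. They lie in introns of the protein-coding *Ttll10* and within the processed transcript *Gm13648* of the same strand. In *Gm13648*, *Mir429* overlaps an exon and the others lie in introns. *Mir200c* (ENSMUSG00000065462) and *Mir141* (ENSMUSG00000065474) lie within 477 bp on the minus strand of chromosome 6, between 124717914 and 124718390, in an intron of the antisense transcript *Gm15884*. *Mir141* also overlaps an exon of *Gm29008* on the same strand.

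miR-200c-3p, the chromosome 6 member of the miR-200b family, stood at 4382, 4780.4, and 4188 CPM in *Zeb1 200H* replicates 1, 3, and 4, and at 1848, 1989, and 1783 CPM in *Zeb1 200M* replicates 1, 2, and 3. Every *Zeb1 200M* library was below every *Zeb1 200H* library, and the gap between the groups was wider than either group's range. The log2 fold change was −1.28 (SE 0.15, 95% confidence interval −1.58 to −0.99), a 2.44-fold difference in all 3 of 3 *Zeb1 200M* libraries (edgeR quasi-likelihood test, Benjamini-Hochberg adjusted p = 1.35e-12). The raw counts behind it were 482, 287, and 550 in *Zeb1 200H* and 162, 247, and 219 in *Zeb1 200M*.

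miR-141-3p, the chromosome 6 member of the miR-200a family, stood at 4136, 3131, and 4592 CPM in *Zeb1 200H* and at 1916, 2198, and 1938 CPM in *Zeb1 200M*. The genotypes did not overlap, and *Zeb1 200H* replicate 3 was the lowest of its group. The log2 fold change was −1.02 (SE 0.15, 95% confidence interval −1.32 to −0.73), a 2.03-fold difference in all 3 of 3 *Zeb1 200M* libraries (edgeR quasi-likelihood test, Benjamini-Hochberg adjusted p = 2.26e-08). In bulk tissue, fewer cells of a type and less RNA per cell cannot be told apart, here or for the other miRNAs.

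The chromosome 4 strands gave smaller differences. miR-200b-3p, which has the seed of miR-200c-3p, stood at 1818, 2265, and 1888 CPM in *Zeb1 200H* and at 1472, 1683, and 1612 CPM in *Zeb1 200M*. Its groups did not overlap, as for 51 of 274 miRNAs (18.6%), and its log2 fold change of −0.35 (95% confidence interval −0.66 to −0.04) in 3 of 3 *Zeb1 200M* libraries did not pass the correction (edgeR quasi-likelihood test, Benjamini-Hochberg adjusted p = 0.268).

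miR-429-3p, the least abundant of the guide strands, stood at 782, 549.7, and 670.1 CPM in *Zeb1 200H* and at 502, 579.8, and 570 CPM in *Zeb1 200M*. The groups overlapped, with *Zeb1 200H* replicate 3 among the *Zeb1 200M* values. Its log2 fold change was −0.34 (95% confidence interval −0.73 to 0.06) and did not pass (edgeR quasi-likelihood test, Benjamini-Hochberg adjusted p = 0.436). miR-200a-3p stood at 1373, 1882, and 1972 CPM in *Zeb1 200H* and at 1414, 1739, and 1718 CPM in *Zeb1 200M*, so that *Zeb1 200H* replicate 1 was lower than every *Zeb1 200M* library. Its log2 fold change was −0.13 (95% confidence interval −0.45 to 0.19) and did not pass (edgeR quasi-likelihood test, Benjamini-Hochberg adjusted p = 0.747). With single libraries left out, miR-200a-3p ran from −0.27 (without *Zeb1 200H* replicate 1) to −0.0046 (without *Zeb1 200H* replicate 4), and miR-429-3p was at −0.20 without *Zeb1 200H* replicate 1. The intervals of these 3 strands do not reach −1, and an absence of change is not shown by them.

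**Figure D1:**
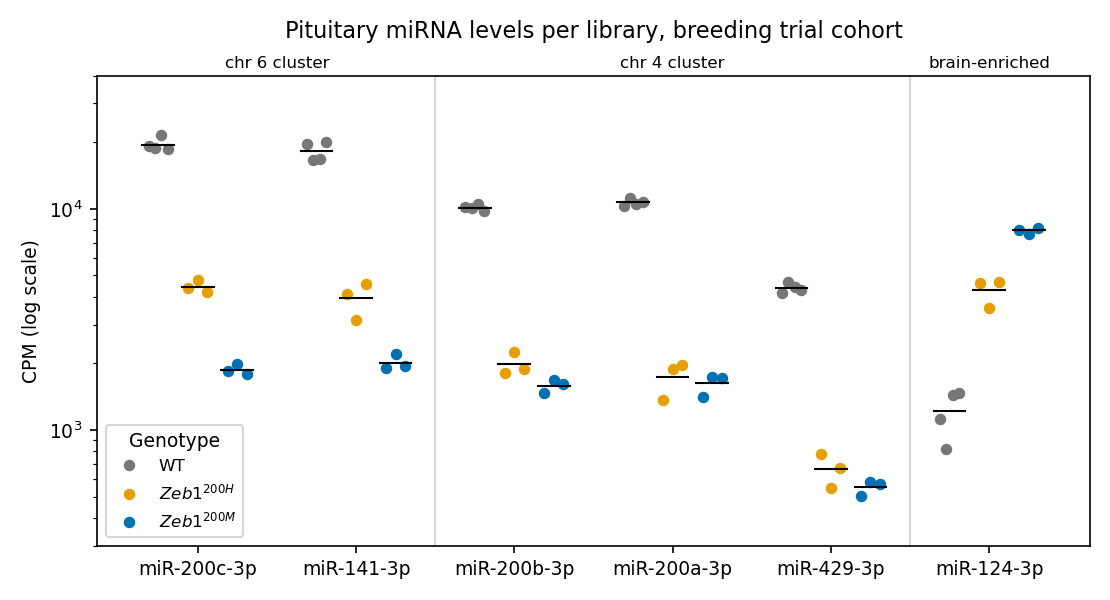
CPM of the 5 miR-200 guide strands and miR-124-3p on a log scale, with a point per library (4 WT, 3 *Zeb1 200H*, 3 *Zeb1 200M*) and a line at each group's mean. miR-200c-3p and miR-141-3p lie lower in all 3 *Zeb1 200M* than in all 3 *Zeb1 200H* libraries and miR-124-3p lies higher, while miR-200a-3p and miR-429-3p overlap.

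Summed by cluster, the chromosome 6 strands gave 8518, 7912, and 8779.8 CPM in *Zeb1 200H* and 3764, 4187, and 3721 CPM in *Zeb1 200M*. The chromosome 4 strands gave 3973, 4697, and 4531 CPM in *Zeb1 200H* and 3388, 4002, and 3900.3 CPM in *Zeb1 200M*. The chromosome 6 sums did not overlap between genotypes and the chromosome 4 sums did. The log2 difference of means was −1.11 for chromosome 6, with a two-sided exact permutation p of 0.1, and −0.23 for chromosome 4, with a two-sided exact permutation p of 0.2. With 3 mice against 3, 0.1 is the smallest p that this test can give, so no sum or ratio of this cohort could pass 0.05.

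The ratio of the chromosome 6 to the chromosome 4 sum, a quantity within each library that does not depend on library scaling, was chosen after these values were seen. It was 2.14, 1.68, and 1.94 in *Zeb1 200H* replicates 1, 3, and 4, and 1.11, 1.05, and 0.954 in *Zeb1 200M* replicates 1, 2, and 3. The lowest *Zeb1 200H* ratio was above the highest *Zeb1 200M* ratio, with means of 1.92 ± 0.23 (SD, n = 3) and 1.04 ± 0.0789 (SD, n = 3) and a log2 difference of −0.89 (two-sided exact permutation p = 0.1). In the 4 WT libraries it was 1.5 ± 0.0931 (SD, n = 4), between both mutant genotypes. The ratio restates the unequal differences that prompted it, and it does not show that the chromosome 4 strands were the same in both genotypes.

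Summed by seed, the miR-200b family gave 6982, 7595, and 6747 CPM in *Zeb1 200H* and 3821, 4252, and 3965 CPM in *Zeb1 200M*. The miR-200a family gave 5509, 5014, and 6564 CPM in *Zeb1 200H* and 3331, 3938, and 3656 CPM in *Zeb1 200M*. Both sums were lower in all 3 *Zeb1 200M* libraries, without overlap. The log2 differences of means were −0.82 for the miR-200b family (two-sided exact permutation p = 0.1) and −0.64 for the miR-200a family (two-sided exact permutation p = 0.1).

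All 10 strands of the superfamily are listed, and the 5 passenger strands, the other strands of the duplexes, were too rare to test. They summed to 12 counts in 301364 reads of *Zeb1 200H* and 12 counts in 334665 reads of *Zeb1 200M*, against 167 counts in 544226 reads of WT. miR-429-5p had 0 counts in all 6 libraries, which allows up to 9.96 CPM over the *Zeb1 200H* and 8.96 CPM over the *Zeb1 200M* libraries at a limit of 3 counts. A genotype difference in these strands was not detectable at this depth.

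The WT libraries place these differences on a longer scale, given as levels with no test and with the *Zeb1 200H* libraries entering both steps. miR-200c-3p averaged 19542 CPM ± 1347 (SD, n = 4) in WT, and its mean log2 CPM differed by −2.13 from WT to *Zeb1 200H* and by −1.25 from *Zeb1 200H* to *Zeb1 200M*. For miR-141-3p the steps were −2.22 and −0.96. For miR-200b-3p they were −2.36 and −0.32, for miR-429-3p −2.73 and −0.27, and for miR-200a-3p −2.64 and −0.09. By these means, the chromosome 4 strands had a larger first step and a smaller second step than the chromosome 6 strands.

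miR-124-3p, an abundant miRNA of neurons that promotes neuronal gene programs, moved the other way. It stood at 4618, 3564, and 4653 CPM in *Zeb1 200H* replicates 1, 3, and 4, and at 8042, 7738, and 8232 CPM in *Zeb1 200M* replicates 1, 2, and 3. The genotypes did not overlap, and the 3 *Zeb1 200M* libraries lay close together. The log2 fold change was 0.85 (SE 0.13, 95% confidence interval 0.59 to 1.11), a 1.8-fold difference in all 3 of 3 *Zeb1 200M* libraries (edgeR quasi-likelihood test, Benjamini-Hochberg adjusted p = 1.15e-07).

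In the WT libraries miR-124-3p averaged 1217 CPM ± 305 (SD, n = 4), and its steps in mean log2 CPM were 1.84 from WT to *Zeb1 200H* and 0.91 from *Zeb1 200H* to *Zeb1 200M*. Its mean was below the sum of the chromosome 6 miR-200 strands in *Zeb1 200H* (8403 CPM) and above it in *Zeb1 200M* (3891 CPM). The mature strand is encoded by 3 hairpins, each within an exon of a long noncoding RNA. They are *Mir124a-1* on chromosome 14 (64590657 to 64590741), *Mir124a-2* on chromosome 3 (17795662 to 17795770), and *Mir124a-3* on chromosome 2 (180894040 to 180894107), and the reads do not tell them apart. Its passenger strand miR-124-5p had between 1 and 4 counts per library and was not tested.

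The miRNAs known as brain-enriched were summed in the same libraries, and which cells they came from was not tested. Of 14 listed strands in the table, 11 were tested, 1 passed (miR-124-3p), and 8 had log2 fold changes above 0 and 3 below, with a median of 0.22 against 0.02 over all 274 miRNAs. For 4 of the 11 the ranges were apart and higher in *Zeb1 200M*, as for 33 of all 274 miRNAs tested (18.6% had ranges apart in either direction). Without miR-124-3p, the list summed to 15618, 13675, and 16318 CPM in *Zeb1 200H* and to 17806, 17385, and 17490.4 CPM in *Zeb1 200M*.

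The summed list was thus higher in every *Zeb1 200M* library even without miR-124-3p, with a smaller relative difference than that of miR-124-3p, and its part in the miR-124-3p result was not tested. miR-137-3p, an abundant neuronal miRNA, had a log2 fold change of 0.29, miR-218-5p, which is enriched in motor neurons, 0.39, and miR-9-5p, typical of neural progenitors, 0.37. miR-153-3p had a log2 fold change of 0.17, and none of these 4 passed. miR-383-5p, at −0.70, was the lowest of the list. The others below 0 were miR-129-5p and miR-138-5p, at −0.13 each. For miR-9-5p the genotypes overlapped, at 582, 250, and 586 CPM in *Zeb1 200H* and 582, 797, and 611 CPM in *Zeb1 200M*. They also overlapped for miR-383-5p, at 182, 300, and 160 CPM in *Zeb1 200H* and 125, 161, and 89.6 CPM in *Zeb1 200M*. In both, *Zeb1 200H* replicate 3 stood apart from its group.

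**Figure D2:**
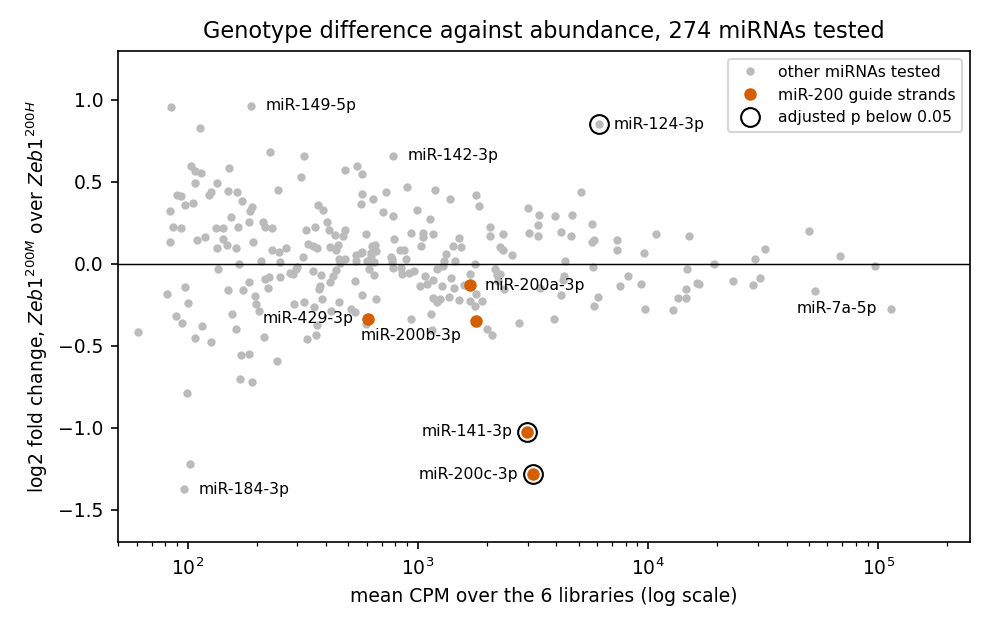
log2 fold change of *Zeb1 200M* over *Zeb1 200H* for the 274 miRNAs tested against their mean CPM over the 6 libraries on a log scale, with a point per miRNA, colour for the miR-200 guide strands, and rings around the 3 with an adjusted p below 0.05. miR-200c-3p and miR-141-3p lie at −1.28 and −1.02 and miR-124-3p at 0.85, apart from other miRNAs of similar abundance.

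Over all miRNAs tested, differences fell on both sides of 0. Log2 fold changes were below 0 for 128 and above 0 for 146 miRNAs, with a median of 0.02, and 40 had an unadjusted p below 0.05 (16 lower, 24 higher). Ranges were apart for 51 (18.6%), of which 18 were lower and 33 higher in *Zeb1 200M*. The biological coefficient of variation shared by all miRNAs was 10.6%.

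miRNAs typical of pituitary endocrine cells were among the most abundant. miR-7a-5p, the most abundant miRNA and one of endocrine and neuroendocrine cells, stood at 135905, 115396, and 119026 CPM in *Zeb1 200H* and at 108926, 105371, and 100847 CPM in *Zeb1 200M*. Its groups did not overlap, and its log2 fold change was −0.28 (SE 0.09) in 3 of 3 *Zeb1 200M* libraries, which did not pass (edgeR quasi-likelihood test, Benjamini-Hochberg adjusted p = 0.0741). It passed under limma voom with sample quality weights (Benjamini-Hochberg adjusted p = 0.0143), and over the 15 alternatives the adjusted p ran from 0.00101 (edgeR with replicate number as a block) to 0.627 (DESeq2). The genotype difference of the block fit rests on replicates 1 and 3 of each genotype only, the numbers that both genotypes share.

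miR-375-3p, a marker of endocrine cells, stood between 92603 and 101704 CPM in *Zeb1 200H* and between 89979 and 107795 CPM in *Zeb1 200M*, with a log2 fold change of −0.02. This value is near 0 and changed sign when *Zeb1 200H* replicate 3, *Zeb1 200M* replicate 1, or *Zeb1 200M* replicate 3 was left out (0.05, 0.04, and 0.01). Among the 10 most abundant miRNAs, the log2 fold change was −0.17 for miR-7b-5p, −0.13 for miR-26a-5p, and −0.10 for let-7f-5p. For miR-29a-3p it was 0.05 and for miR-29b-3p 0.20, and none passed. In the block fit, on replicates 1 and 3 of each genotype, miR-29b-3p was at 0.39 and passed (edgeR, Benjamini-Hochberg adjusted p = 0.00152, against up to 0.981 over the alternatives). miR-125b-5p (0.09), miR-29c-3p (0.03), and miR-127-3p (−0.09) complete the 10, and miR-29c-3p was at −0.03 without *Zeb1 200H* replicate 1. Of the 25 members of the abundant pituitary families, 21 were in the table and tested, 0 passed in edgeR without a replicate block (2 with it, miR-7a-5p and miR-29b-3p), 7 were above and 14 below 0, and the median was −0.09. Together they held between 621423 and 643255 CPM of each library. Most of this list is broadly expressed (let-7, miR-26, miR-29, miR-30, and miR-125 members), and miR-7a-5p, miR-7b-5p, and miR-375-3p, typical of the labelled tissue, were abundant in all 6 libraries.

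miR-132 and miR-212, which share a hairpin cluster and are induced by GnRH in gonadotropes, were examined since the tissue was taken in proestrus. miR-212-3p stood at 2327, 2065, and 2330.1 CPM in *Zeb1 200H* and at 1529, 1771, and 1954 CPM in *Zeb1 200M*. miR-132-3p stood at 13118, 15174, and 13600 CPM in *Zeb1 200H* and at 10038, 12465, and 12898 CPM in *Zeb1 200M*. Both guide strands had ranges apart and lower in *Zeb1 200M*, as did 18 of all 274 miRNAs tested (18.6% had ranges apart in either direction).

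Their log2 fold changes were −0.40 for miR-212-3p (edgeR quasi-likelihood test, Benjamini-Hochberg adjusted p = 0.177, lower in 3 of 3 libraries) and −0.28 for miR-132-3p (edgeR quasi-likelihood test, Benjamini-Hochberg adjusted p = 0.209, lower in 3 of 3 libraries), and neither passed. Of the 4 strands tested, 2 were above and 2 below 0, with a median of −0.10, and miR-212-5p was at 0.08, or at −0.04 without *Zeb1 200H* replicate 1.

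Other epithelial miRNAs were at lower levels than the chromosome 6 strands and less precisely measured. Of 8 listed, 7 were tested, 0 passed in edgeR, 4 were above and 3 below 0, and the median was 0.13. miR-205-5p, typical of stratified epithelia, stood at 345, 316, and 426 CPM in *Zeb1 200H*, at 331, 604, and 407 CPM in *Zeb1 200M*, and at 3092 CPM on average in WT. The 2 mutant genotypes overlapped, with *Zeb1 200M* replicate 2 highest, and without that library the log2 fold change of 0.25 became −0.03. Its steps in mean log2 CPM were −3.08 from WT to *Zeb1 200H* and 0.27 from *Zeb1 200H* to *Zeb1 200M*. miR-96-5p (−0.37) and miR-194-5p (−0.07) did not pass, and the sign of miR-194-5p changed without *Zeb1 200H* replicate 1 (0.0012) or *Zeb1 200M* replicate 3 (0.07).

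miRNAs known from blood, vessels, and connective tissue were examined as lists, and which cells they came from was not tested. Of 7 blood and immune miRNAs tested of 10 members, 0 passed in edgeR with TMM scaling, a fit that is not robust, and all 6 libraries, 6 were above and 1 below 0, and the median was 0.25. Their sum was 8945, 10909.9, and 9389 CPM in *Zeb1 200H* and 9913, 10210.2, and 13411 CPM in *Zeb1 200M*, with overlap and with *Zeb1 200M* replicate 3 highest. The erythroid miR-451a made up most of it, with a log2 fold change of 0.15 that became −0.04 without *Zeb1 200M* replicate 3.

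miR-142-3p, a miRNA of leukocytes, came closest to the threshold of the miRNAs that did not pass. It stood at 609, 483, and 662 CPM in *Zeb1 200H* and at 867, 781, and 1262 CPM in *Zeb1 200M*. The groups did not overlap, and *Zeb1 200M* replicate 3 was the highest. The log2 fold change was 0.66 (SE 0.19) in 3 of 3 *Zeb1 200M* libraries (edgeR quasi-likelihood test, Benjamini-Hochberg adjusted p = 0.0522). It passed in 3 of 15 alternatives, which were edgeR with size factors, the robust fit, and the fit without *Zeb1 200M* replicate 2 (edgeR, Benjamini-Hochberg adjusted p = 0.0152), while leaving out *Zeb1 200M* replicate 3 gave 0.42 on the log2 scale (edgeR, adjusted p = 0.59 by Benjamini-Hochberg). Over the 15 alternatives the Benjamini-Hochberg adjusted p ran from 0.0152 in edgeR to 0.699 in DESeq2.

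miR-144-3p, from the same erythroid cluster as miR-451a, had a log2 fold change of 0.15, which became −0.02 without *Zeb1 200H* replicate 3 and −0.05 without *Zeb1 200M* replicate 3. miR-146a-5p, a miRNA induced in inflammation, had a log2 fold change of −0.34 and did not pass. Of 10 vessel and fibroblast miRNAs, 6 were tested, 0 passed in edgeR, 5 were above and 1 below 0, and the median was 0.12. The smooth muscle miRNA miR-145a-5p stood at 0.34 with ranges apart, the endothelial miR-126a-5p at 0.17, and miR-126a-3p at −0.02, which changed sign without *Zeb1 200H* replicate 1 (0.0049) or *Zeb1 200M* replicate 3 (0.05). The muscle and liver miRNAs were near 0, with a sum of at most 66.6 CPM in a library and 0 tested of 5 members.

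The imprinted *Dlk1*-*Dio3* region encodes a large cluster of miRNAs expressed from the maternal chromosome. Of its 92 strands in the table, 55 were tested, 0 passed in edgeR, 21 were above and 34 below 0, and the log2 fold changes ran from −0.59 to 0.42 with a median of −0.06. Ranges were apart for 3 higher and 5 lower strands of the 55, beside 18.6% of all miRNAs tested. Its most abundant strands, miR-127-3p, miR-136-5p, and miR-434-3p, were at −0.09, 0.17, and 0.13. Of the 7 strands of miR-34 and miR-449, which in part mark ciliated cells, 2 were tested. miR-34c-5p was at 0.17 and miR-34a-5p at −0.24, with a median of −0.03, and neither passed. The value of miR-34a-5p rested on *Zeb1 200H* replicate 4, without which it was 0.20, and miR-34c-5p was at 0.46 without *Zeb1 200H* replicate 1 and at 0.01 without *Zeb1 200H* replicate 4.

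**Figure D3:**
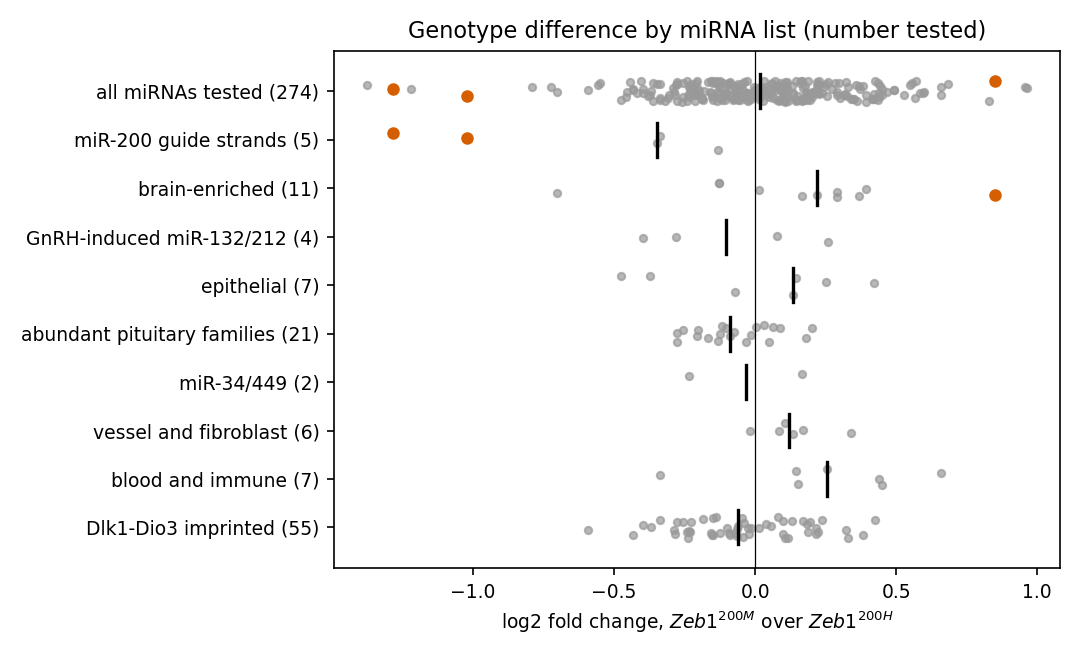
log2 fold change of *Zeb1 200M* over *Zeb1 200H* for each tested member of the lists, with a point per miRNA, a vertical line at each list's median, and the number tested in parentheses. Coloured points passed an adjusted p of 0.05, which are 2 miR-200 guide strands and miR-124-3p, and the medians of the lists other than miR-200 lie between −0.10 and 0.25.

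Other miRNAs with small p values did not pass. miR-135a-5p stood at 4691, 3081, and 4912 CPM in *Zeb1 200H* and at 5293, 6538, and 6042 CPM in *Zeb1 200M*, a log2 fold change of 0.44 without overlap. miR-149-5p stood at 90.9, 99.9, and 175 CPM in *Zeb1 200H* and at 205, 234, and 326 CPM in *Zeb1 200M*, a log2 fold change of 0.96. Both had a Benjamini-Hochberg adjusted p of 0.0741 (edgeR quasi-likelihood test, higher in 3 of 3 libraries). The log2 fold change was 0.60 for miR-598-3p, 0.66 for miR-216a-5p, 0.55 for miR-222-3p, and −0.43 for miR-374b-5p. The groups overlapped for miR-216a-5p, which was at 1.02 without *Zeb1 200H* replicate 4, and for miR-222-3p, which was at 0.30 without *Zeb1 200M* replicate 2. miR-135a-5p was at 0.29 without *Zeb1 200H* replicate 3.

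miR-184-3p rested on very few reads. Its counts were 16, 6, and 22 in *Zeb1 200H* and 4, 15, and 0 in *Zeb1 200M*, and *Zeb1 200M* replicate 2 lay among the *Zeb1 200H* values. The log2 fold change was −1.38 (edgeR quasi-likelihood test, Benjamini-Hochberg adjusted p = 0.0741, with 2 of 3 *Zeb1 200M* libraries below all *Zeb1 200H* libraries). Without *Zeb1 200M* replicate 2 it was −2.87 and passed (edgeR, Benjamini-Hochberg adjusted p = 0.00304), and without *Zeb1 200M* replicate 3 it was −0.74 and did not (edgeR, Benjamini-Hochberg adjusted p = 0.612). Over all 15 alternatives the Benjamini-Hochberg adjusted p ran from 0.000203 (limma voom) to 0.981 (DESeq2), against 0.0741 in edgeR. miR-125a-3p, with counts of 14, 11, and 16 against 7, 8, and 5, had a log2 fold change of −1.22 and did not pass (edgeR quasi-likelihood test, Benjamini-Hochberg adjusted p = 0.129, lower in 3 of 3 libraries).

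The same genotypes were compared in virgin females 8–12 weeks old, with 4 libraries each of at least 8502878 counts and no library in common. Age, breeding history, sequencing depth, instrument, and matching rule all differ between the cohorts and cannot be told apart. In the virgin cohort 15 of 675 miRNAs passed (2.22%), of which 5 were higher and 10 lower in *Zeb1 200M*. Of these 15, 12 are named in the breeding trial table and 8 were tested there. All 8 had the same sign and 2 passed there, where 1.09% of all 274 miRNAs tested passed. The share of all miRNAs with the same sign in both cohorts was not counted. The 8 include the 5 miR-200 guide strands and both strands of miR-770, so they are not 8 independent cases. Among those not tested, miR-183-5p was at −0.58 in the virgin cohort. In the breeding trial it averaged 66.8 CPM in *Zeb1 200H* and 92.3 CPM in *Zeb1 200M*. miR-141-5p (3 counts in *Zeb1 200H* and 5 in *Zeb1 200M*) and miR-200c-5p (1 count in each genotype) had too few reads in the breeding trial to give a direction.

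The chromosome 6 strands had similar differences in both cohorts, with log2 fold changes of −1.28 and −1.24 for miR-200c-3p and of −1.02 and −1.22 for miR-141-3p in the breeding trial and virgin cohorts. The chromosome 4 strands, which passed in the virgin cohort, had −0.35 and −0.51 for miR-200b-3p, −0.13 and −0.47 for miR-200a-3p, and −0.34 and −0.82 for miR-429-3p. The difference between cohorts was tested as an interaction, and 0 of 618 miRNAs (0%) passed in edgeR. At an unadjusted p below 0.05 there were 44 in edgeR, 37 in DESeq2, and 52 in limma voom, and 0 passed in either of these other tools. The unadjusted edgeR interaction p was 0.111 for miR-200a-3p, 0.082 for miR-429-3p, and 0.486 for miR-200b-3p. A difference of the miR-200 strands between cohorts was not shown.

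The virgin table lists miR-124-3p as a pair of isoforms that start at different bases, and both rose in that cohort. The log2 fold changes were 0.55 for miR-124-3p.1 (edgeR, Benjamini-Hochberg adjusted p = 0.0239, n = 4) and 0.60 for miR-124-3p.2 (edgeR, Benjamini-Hochberg adjusted p = 0.0152, n = 4). With miR-124-3p.1 entered under the name used in the breeding trial table, an alternative chosen after the data were seen, the difference between cohorts was 0.26 (SE 0.17, edgeR interaction, Benjamini-Hochberg adjusted p = 0.726).

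The ratio of the clusters gave 1.92 ± 0.0693 (SD, n = 4) in *Zeb1 200H* and 1.19 ± 0.0496 (SD, n = 4) in *Zeb1 200M* of the virgin cohort, with a two-sided exact permutation p of 0.0286, the smallest that 4 against 4 can give. There 4 of the 5 passenger strands were deep enough to be tested, and miR-429-5p was not. The chromosome 6 strands miR-141-5p and miR-200c-5p had log2 fold changes of −1.31 and −1.24 and passed, and the chromosome 4 strands miR-200b-5p and miR-200a-5p had −0.51 and −0.21 and did not.

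The lowest unadjusted interaction p of a miRNA named above was that of miR-125a-3p (0.000364 in edgeR, Benjamini-Hochberg adjusted p = 0.225), at −1.22 in the breeding trial and 0.09 in the virgin cohort. miR-212-3p was at −0.40 and 0.02, with an unadjusted edgeR interaction p of 0.00419 (Benjamini-Hochberg adjusted p = 0.437). miR-132-3p was at −0.28 and 0.11, with an unadjusted edgeR interaction p of 0.0151 (Benjamini-Hochberg adjusted p = 0.519). Across the 262 miRNAs tested in both cohorts, which are not independent replicates, log2 fold changes had a Pearson r of 0.4 and a Spearman rho of 0.192. Without the 5 miR-200 guide strands, r was 0.253 and rho 0.153 over 257 miRNAs.

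**Figure D4:**
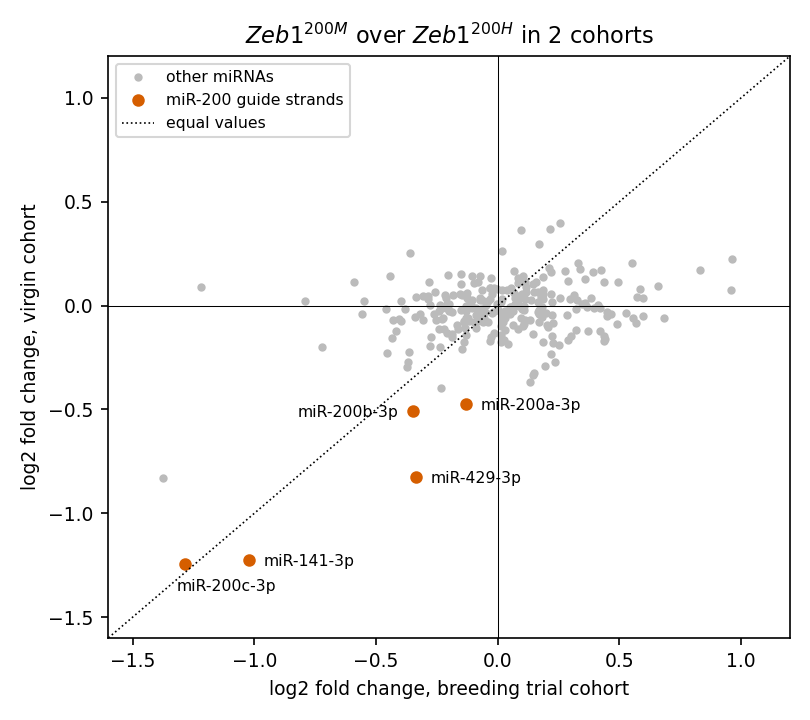
log2 fold change of *Zeb1 200M* over *Zeb1 200H* in the virgin cohort against the breeding trial cohort for the 262 miRNAs tested in both, with a point per miRNA, colour for the miR-200 guide strands, and a dotted line of equal values. miR-200c-3p and miR-141-3p lie below −1 in both cohorts, and miR-200b-3p, miR-200a-3p, and miR-429-3p lie below 0 in both and nearer to 0 in the breeding trial cohort.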

How the data were processed

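The authors added 3 μg of yeast carrier RNA to 0.5 μg of total RNA per library, selected 18–32 nt RNAs, trimmed adapters with cutadapt, and matched the first 18 bases of each read to a miRBase dictionary. The deposited table holds raw counts per miRNA and library. It also holds values scaled by size factors, fold changes, and p values of the authors, which were not used.

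The test on raw counts was the quasi-likelihood F test of edgeR 4.0.16 in R 4.3.3, with TMM scaling and its expression filter (minimum count 10, minimum total count 15). Benjamini-Hochberg adjustment covered every miRNA tested, and adjusted p values below 0.05 passed. CPM are raw counts over the library total. Standard errors were derived from the F statistic. For sums and ratios, mean log2 values were compared by exact permutation, two-sided, in R and in scipy 1.17.1 (Python 3.11.15, figures with matplotlib 3.10.9). The cohort interaction was fitted over the 1816 names in both tables. Correlations between libraries used log2 CPM with a pseudocount of 10 CPM. The procedure was tested on simulated data, whose outcome is not given here and on which no result rests. Hairpins were read from the GENCODE annotation of GRCm38.

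The alternatives were DESeq2 1.42.0, its size factors in edgeR, no filter on low counts, a mean of 10 CPM in *Zeb1 200H* as the filter, a robust fit, limma 3.58.1 (voom with sample quality weights), replicate number as a block, a common fit with WT, and leaving out each library. For the family sums they were TMM-adjusted CPM, size factors, and added passenger strands. Chosen after the data were seen were TMM without the miR-200 guide strands and miR-124-3p, the joined name of miR-124-3p.1, and the cluster ratio with its left-out libraries and virgin values.

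Named are the miRNAs that passed, all miR-200 strands, the 10 most abundant, the 10 with the smallest p among those that did not pass, and up to 3 abundant members of each list. miR-218-5p, miR-9-5p, miR-383-5p, miR-129-5p, miR-138-5p, and miR-183-5p were named after their values were seen, as were the virgin passenger strands. The members and lists were chosen with earlier results of these data known.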

Additional observations from a re-analysis of the deposited data

Results flagged for a closer look

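Among 104 groups of 4 libraries examined, 5 had a library farther from the other 3 than the critical value of Dixon's test allows, where chance gives about 1 in 20. None is a library of the breeding trial mutants, whose groups of 3 were not examined in this way, and none enters the main comparison.

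The chromosome 6 miR-200 strands summed to 35423 CPM in WT replicate 2 of the breeding trial cohort, against 38339 to 38707 CPM in the other WT libraries. The sum of all 5 guide strands in the same library was 61385 CPM, against 63399 to 63775 CPM in the others. The erythroid miR-451a was high in that library, at 7724 CPM against 5384 to 5463 CPM.

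miR-149-5p stood at 57.4 CPM in WT replicate 4 of the breeding trial cohort, against 110 to 119 CPM in the other WT libraries. miR-429-3p stood at 824 CPM in *Zeb1 200H* replicate 3 of the virgin cohort, against 551 to 587 CPM in the other *Zeb1 200H* libraries.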

How the results depend on the processing

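The 3 miRNAs that passed (miR-124-3p, miR-200c-3p, miR-141-3p) did so under all 15 alternatives, with log2 fold changes of 0.76 to 0.94, −1.39 to −1.22, and −1.14 to −0.90. miR-200b-3p, miR-200a-3p, and miR-429-3p passed in 0 of the 15, edgeR, DESeq2, and limma voom included. Besides the 3 that passed throughout, miR-142-3p passed with size factors and with a robust fit, which gave 2 miRNAs higher in place of 1. limma voom gave 5 in all and 4 lower, with miR-7a-5p and miR-184-3p added. Leaving out each library gave 3 to 5 miRNAs in all, 1 to 2 higher and 2 to 3 lower, with the most without *Zeb1 200M* replicate 2 (miR-142-3p and miR-184-3p added). The cause was not tested.

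Replicate numbers 1 and 3 are shared by both genotypes, and the labels do not say whether they mark litters. With each genotype's mean subtracted, the pairs sharing a number correlated at 0.0607 and −0.11 across miRNAs, and other pairs at −0.167 to 0.157. With the number as a block, *Zeb1 200H* replicate 4 and *Zeb1 200M* replicate 2 have no partner. The genotype difference of that fit therefore rests on replicates 1 and 3 of each genotype, not on all libraries. In it, 5 miRNAs passed (2 higher), with miR-7a-5p and miR-29b-3p added. The uncalled log2 fold changes of miR-125b-5p (−0.0102) and miR-34a-5p (0.034) changed sign.

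With 1 library left out, 0 of the 3 log2 fold changes that passed moved by over 1.5 times. Of 40 other named ones, 31 did, so single values of miRNAs that did not pass often rest on single libraries. That count leaves out miR-218-5p, miR-9-5p, miR-383-5p, miR-129-5p, and miR-138-5p. Other changes of sign were among miRNAs that did not pass, and their cause was not tested. miR-375-3p was at 0.0111 under limma voom. With each library left out in turn, log2 fold changes ran from −0.0857 to 0.0457 for miR-375-3p, −0.0349 to 0.109 for miR-29c-3p, −0.0385 to 0.185 for miR-212-5p, −0.269 to 0.0711 for miR-194-5p, −0.0278 to 0.406 for miR-205-5p, −0.386 to 0.204 for miR-34a-5p, −0.0501 to 0.055 for miR-126a-3p, −0.0442 to 0.307 for miR-451a, and −0.0506 to 0.276 for miR-144-3p.

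The miR-200b family sum ranged from −0.88 to −0.78 and the miR-200a family sum from −0.73 to −0.53 on the log2 scale, lower in *Zeb1 200M*. The virgin cohort gave 12 to 20 miRNAs and the interaction 0 under all 22 alternatives (edgeR, DESeq2, and limma voom, with 34 to 62 at an unadjusted p below 0.05). Among breeding trial miRNAs with mean counts below 100, the median half-width of the unadjusted 95% confidence interval was 0.50 on the log2 scale. Larger differences in that band did not pass in edgeR either, such as 0.96 for miR-149-5p and −1.22 for miR-125a-3p. The passenger strands were not resolved at this depth.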
